A study of Mus musculus with 28 samples.

Results

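The saline-treated pups of this series are the untreated side of a study of neonatal opioid withdrawal, and their nucleus accumbens transcriptomes are described here on their own. The members were the 14 libraries labelled with saline as the agent, of 28 in all, and the choice used no measured value. The pups were outbred CFW mice, by the series title, sampled on postnatal day 15, the day on which the pups of the other arm, given morphine once daily, were in spontaneous withdrawal. The saline groups held 8 males and 6 females, and the other 14 libraries, from pups given morphine, enter no comparison. The labels name no genotype, saline volume, litter, dissection or sequencing batch, so p-values measure the spread between these samples, which may include relatedness or technical differences.

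The nucleus accumbens is the ventral part of the striatum. Most of its neurons are GABA-releasing projection neurons (medium spiny neurons), which are sorted into a direct-pathway class carrying the dopamine receptor Drd1 with the peptides dynorphin (Pdyn) and substance P (Tac1), and an indirect-pathway class carrying Drd2, the adenosine receptor Adora2a and proenkephalin (Penk). Glutamate arrives from cortex, hippocampus, thalamus and amygdala, dopamine arrives from the midbrain, and in the second postnatal week of a mouse the projection neurons, their synapses and the myelin around passing axons are still maturing.

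The titles number the libraries, and counts from libraries numbered up to 20 (10 saline pups, here the first set) differed throughout from those numbered above 20 (4 saline pups, the second set), a division the labels do not name. Total counts ranged from 42.7 to 82.7 M (mega, counts per library) in the first set, with a median of 48.0 M, and had a median of 48.2 M in the second. Even numbers made up 67.0% to 69.6% of the counts from 1 to 40 in the first set and 76.3% to 77.2% in the second. Of 19341 genes with enough counts to test, 1257 (6.5%) lay above every first-set pup in all 4 second-set pups, and 1158 (5.99%) lay below. Without female 5, whose markers are described next, 1741 (9%) lay above and 1932 (9.99%) below, so the larger count changed direction. Spread is therefore given within each set. In the first set the deviation of the most GC-rich genes also varied between libraries. The median log2 deviation of the 10% of genes with the highest GC content ran from -0.12 in female 1 to 0.17 in male 5, against -0.0093 to 0.0045 in the second set.

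The stated tissue, nucleus accumbens, was checked against striatal markers, and 2 pups stood apart. Drd1 was measured at 56.3 CPM (counts scaled to the library total, with TMM factors) in the lowest first-set pup, 132 CPM at the median and 169 CPM in the highest. Among second-set pups it was 203 CPM in male 7, 110 CPM in male 8, 119 CPM in female 6 and 29.0 CPM in female 5. Male 5 was the lowest of the first set, and female 5 was lower than every other pup. The same pups were lowest for the dopamine receptor Drd2, which spanned 43.6, 90.7 and 125 CPM (lowest, median, highest) in the first set and was 127, 91.2, 106 and 14.0 CPM in male 7, male 8, female 6 and female 5. Penk, the enkephalin precursor, spanned 134, 344 and 449 CPM in the first set, and was 692, 358, 381 and 65.7 CPM in the same 4 second-set pups. Ppp1r1b, which encodes the projection-neuron phosphoprotein DARPP-32, spanned 311, 525 and 904 CPM, and was 1159, 629, 646 and 110 CPM. All 4 markers were thus present in every pup, and the library labelled female 5 held the least of each. Slc17a7, the vesicular glutamate transporter of cortical excitatory neurons, went the other way in these libraries: it was 2006 CPM in female 5 and 1436 CPM in male 5, against a first-set median of 939 CPM. Ratios, counts of separated genes and comparisons of spread over the second set are given with and without female 5. In bulk tissue, fewer cells of a type and less RNA per cell cannot be told apart, and the part of dissection in these differences was not tested.

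**Figure D1:**
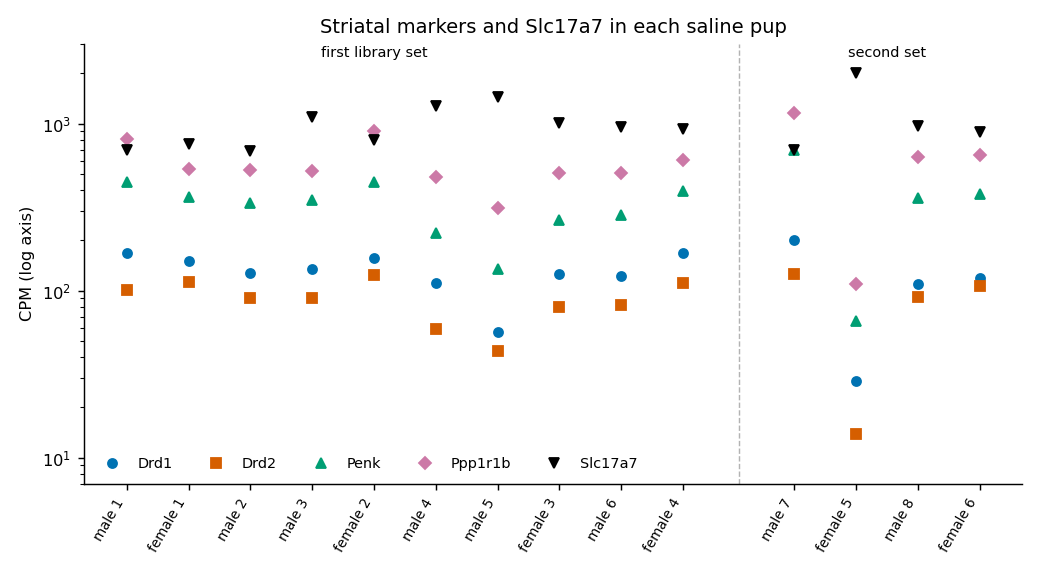
CPM (log axis) of 4 striatal markers and of Slc17a7 in each of the 14 saline pups, first library set left of the dashed line and second set right. Female 5 holds the lowest point of all 4 striatal markers (Drd2 at 14.0 CPM) and the highest Slc17a7 point (2006 CPM), and male 5 has the lowest striatal points of the first set.

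The relative level of the pathway markers was steadier than the levels. Per kilobase (kb) of exon, Drd1 was 1.05 ± 0.13 times Drd2 in the first set (SD, n = 10) and 1.05 ± 0.31 times in the second (n = 4). The second-set ratio was 1.46 in female 5 and 0.92 ± 0.18 in the other 3 pups (SD, n = 3). Penk was 6.21 ± 0.98 times Pdyn per kb in the first set and 7.62 ± 0.85 times in the second, or 7.94 ± 0.67 times without female 5. Across the 10 first-set pups, log2 CPM of Drd2 followed that of Penk (Pearson r = 0.97, Spearman rho = 0.95, adjusted permutation p = 0.0003 and 0.00072). Drd1 followed Drd2 (r = 0.93, rho = 0.89, adjusted permutation p = 0.00039 and 0.00357) and Pdyn (r = 0.86, rho = 0.73, adjusted permutation p = 0.00134 and 0.0305). Without the 2 pups farthest from the median of the first-named gene, these 3 values of r were 0.85, 0.87 and 0.79. Drd2 ran against Slc17a7 (r = -0.81, rho = -0.67, adjusted permutation p = 0.00397 and 0.0398), but r was -0.42 without male 4 and male 5, so that relation rests on those 2 pups. These are 4 of 6 pairs computed, with two-sided p-values from 100000 permutations adjusted over the 6, and the genes of a pair share each library. The second set has too few pups for a correlation.

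The order of gene classes was set by energy and neuronal genes. Over 15044 protein-coding genes tested the median level was 5.01 CPM per kb. The 13 genes of the mitochondrial genome had a median of 1825 CPM per kb, the 10 pan-neuronal genes 127 CPM per kb (led by the neuronal tubulin Tubb3 at 297 CPM per kb), and 12 nuclear-encoded respiratory chain genes 77.3 CPM per kb. The 14 striatal projection neuron genes followed at 52.5 CPM per kb. With the longest transcript as length, the pan-neuronal median was 213 and the striatal median 81.9 CPM per kb, in the same order. Within them the G-protein subunit Gng7 was highest at 266 CPM per kb, Ppp1r1b was at 201.3 CPM per kb and the retinoic acid receptor Rarb was lowest at 6.21 CPM per kb. GABA receptor and chloride transporter genes had a median of 27.7 CPM per kb over 20 members, astrocyte markers 23.4 over 10, microglial markers 15.4 over 10, myelin genes 14.4 over 22 and glutamate receptors 11.9 over 17. Endothelial markers stood near the protein-coding median at 5.22 CPM per kb, and mural cell (2.73), meningeal (1.17), choroid plexus and ependymal (0.70) and MHC genes (0.70) lay below it. The mitochondrial median of 1825 CPM per kb is the lowest of 7 high genes, and the rest of those 13, described below, reached down to 1.22 CPM per kb. The lists differ in how many broadly used genes they hold, so their order is of the lists and not of cell numbers.

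**Figure D2:**
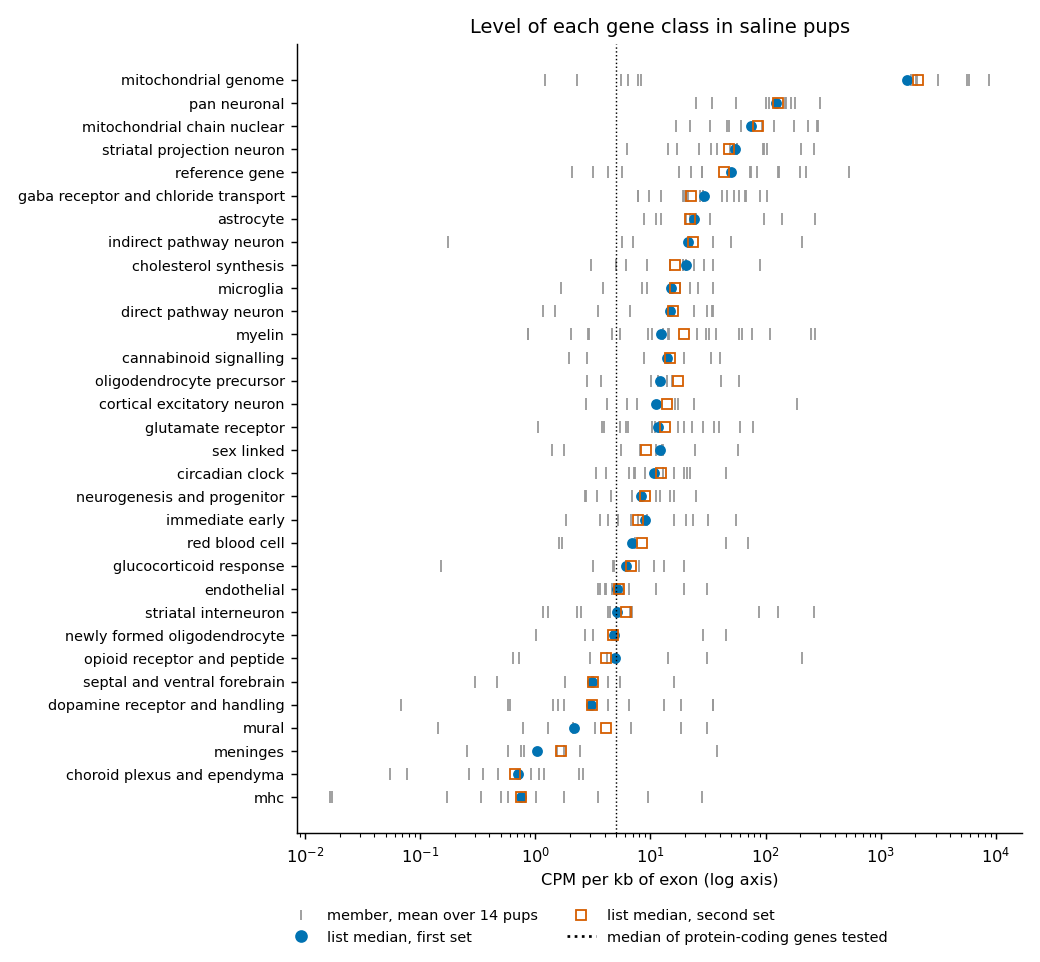
Level in CPM per kb of exon (log axis) of the members of 32 gene classes (grey ticks, mean over 14 pups, members at 0 left out), with the class median in the first set (filled circles) and second set (open squares, female 5 included). The mitochondrial genome (median 1825 CPM per kb, the lowest of its 7 high members) and pan-neuronal genes (127) lead, and choroid plexus and MHC genes (0.70 each) are lowest.

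Genes of other tissues near the accumbens were low or uneven. The ependymal transcription factor Foxj1 had 6.83 ± 2.00 CPM over the 14 pups (SD, n = 14), and the choroid plexus gene Ttr had 0.35 CPM per kb. Ptgds, the prostaglandin D synthase made by meninges and oligodendrocytes, ranged over 2.21, 21.1 and 105 CPM (lowest, median, highest) in the first set and was 20.4, 329, 10.7 and 173 CPM in male 7, male 8, female 6 and female 5. Haemoglobin beta (Hbb-bs), a measure of blood left in the tissue, spanned 37.7, 47.4 and 65.3 CPM in the first set and reached 92.8 CPM in female 5. The vascular smooth muscle actin Acta2 was at most 12.0 CPM in the first set but 38.5 CPM in male 8, the pup with the most Ptgds.

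The direct-pathway list placed 3 genes close together per kb: Drd1 at 35.1, Tac1 at 34.3 and Pdyn at 30.9 CPM per kb. The muscarinic receptor Chrm4, which inhibits cAMP in direct-pathway neurons, was at 23.7 CPM per kb. The LIM homeodomain factor Isl1, which sets the direct-pathway identity, was at 3.49 CPM per kb, and the transcription factor Ebf1, needed for direct-pathway axons, at 1.17. Isl1 had the widest spread of that list, from 4.67 to 25.0 CPM in the first set, and was 1.08 CPM in female 5 against 11.2 to 21.6 CPM in the other 3 second-set pups. The mitochondrial serine carrier Sfxn1 had the narrowest, with 62.9, 67.8 and 74.4 CPM in the first set and 57.2 CPM in female 5, close to the 57.2 to 61.7 CPM of the other 3.

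In the indirect-pathway list Penk was highest at 208 CPM per kb, followed by Adora2a at 50.4, Drd2 at 34.6 and the orphan receptor Gpr6 at 21.8 CPM per kb. Adora2a spanned 80.9, 159 and 243 CPM in the first set and was 239, 146, 155 and 18.6 CPM in male 7, male 8, female 6 and female 5. Sp9, a transcription factor needed for the formation of indirect-pathway neurons, was also lowest of the second set in female 5, at 24.5 CPM. Male 7, male 8 and female 6 had 40.7, 41.5 and 50.3 CPM. Unlike that of Adora2a, the Sp9 value of female 5 lay inside the first-set range, which was 15.3 to 32.2 CPM. The beta-ureidopropionase gene Upb1 was the lowest of the list at 1.18 ± 0.58 CPM (SD, n = 14).

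Opioid genes covered a wide range. Penk (208 CPM per kb) and Pdyn (30.9) led, and among receptors the nociceptin receptor Oprl1 was highest at 14.3 CPM per kb, then the kappa receptor Oprk1 (5.09), the delta receptor Oprd1 (4.20) and the mu receptor Oprm1 (0.64). Oprl1 was even, at 50.9 to 63.8 CPM in the first set and 43.6 to 49.0 CPM in the second. Oprk1 was not: it spanned 30.3, 53.3 and 67.0 CPM in the first set and was 11.9 CPM in female 5 against 32.7 to 53.1 CPM in the other 3. Oprm1, the main target of morphine, spanned 2.20, 5.40 and 10.2 CPM in the first set and 2.98 to 4.34 CPM in the second. The nociceptin precursor Pnoc was at 2.96 CPM per kb and the beta-endorphin precursor Pomc at 0.73, the latter with 0.21 to 1.53 CPM in the first set.

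The dopamine list held receptors and genes of dopamine synthesis, transport and breakdown, and which cells made these transcripts was not tested. Beside Drd1 and Drd2, Drd3 was at 1.56, Drd5 at 0.60 and Drd4 at 0.069 CPM per kb. Drd3 spanned 0.37, 2.72 and 3.55 CPM in the first set, lowest in male 5, and was 0.61 CPM in female 5 against 3.63 to 4.60 CPM in the other 3. The catabolic enzymes Maoa (13.0 CPM per kb) and Maob (6.56) exceeded the genes of dopamine synthesis and transport, namely tyrosine hydroxylase Th (4.28), the decarboxylase Ddc (1.77), the vesicular transporter Slc18a2 (1.42) and the dopamine transporter Slc6a3 (0.58 CPM per kb). Slc6a3 was present in every first-set pup, at 1.10 to 3.05 CPM. In the second set it was 0.53 CPM in male 7 and 1.89 to 2.38 CPM in the other 3.

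Receptor and transporter pairs used as signs of maturation were compared as ratios. The NMDA receptor subunit Grin2a, which increases after birth, was 0.27 ± 0.04 times Grin2b per kb in the first set (SD, n = 10) and 0.31 ± 0.04 times in the second (n = 4). Female 5 had the highest ratio of all pups, 0.37, the other 3 of its set had 0.29 to 0.30, and the lowest was 0.20 in male 2. The chloride exporter Slc12a5 (KCC2) was 8.41 ± 0.90 times the importer Slc12a2 (NKCC1) per kb in the first set and 9.15 ± 1.32 times in the second, or 9.54 ± 1.29 times without female 5. Genes of young neurons were still present: the SoxC factor Sox4 was at 24.8, the subpallial progenitor factor Dlx1 at 15.9, the migration gene Dcx at 14.7 and the proliferation marker Mki67 at 2.68 CPM per kb.

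The highest levels of all belonged to mitochondrial transcripts, but not to all of them. Mt-Co1, a cytochrome oxidase subunit, was at 8816 CPM per kb, mt-Nd1 at 5864 and mt-Cytb at 5643, and 7 of the 10 highest protein-coding genes were mitochondrial. The other 3 were calmodulin Calm2 (895 CPM per kb), the elongation factor Eef1a1 (799) and the peptide-processing carboxypeptidase Cpe (781). In contrast mt-Co2, a subunit of the same oxidase, was at 7.86 CPM per kb, with mt-Atp8 at 8.21, mt-Co3 at 6.41, mt-Atp6 at 5.60, mt-Nd4l at 2.29 and mt-Nd3 at 1.22. Of the words of 31 bases in mt-Atp6, 99.5% also occur in Gm10925, a pseudogene on chromosome 1, and for mt-Co2, mt-Co3, mt-Nd3 and mt-Nd4l a pseudogene of that chromosome holds 98.1% to 99.9% of the words. No gene shared 20% of the words of mt-Nd1 or of mt-Atp8, whose reading frame overlaps that of mt-Atp6. Gm10925 had 1.36 to 2.53 CPM in the first set and 32.2 to 42.4 CPM in the second. The 6 low mitochondrial values are therefore uncertain as levels, and how reads with several matches were counted is not given in the sources used here.

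Spread between pups was small for most genes. It was ranked over 10066 genes with a mean of at least 10 CPM in both sets (chromosome Y genes, Xist and Tsix left out). The SD of log2 CPM had a median of 0.12 in the first set, with quartiles of 0.09 and 0.17. Counting error computed from halved mean counts gives 0.04, and full counts would give less. The second set had a median of 0.12, or 0.08 without female 5. Only 105 of these genes (1.04%) had an SD over 0.5 in the first set and 9 over 1. Of the 100 genes with the highest SD in the first set, 34 were among the 100 highest in the second set, and 32 without female 5.

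The classes differed in spread between pups. All 10 ranked immediate early genes were in the top 10% of SD in the first set, as were 7 of 8 cortical excitatory neuron markers, 6 of 7 indirect-pathway, 5 of 7 direct-pathway and 11 of 14 striatal projection neuron genes. By construction 10% of all ranked genes are there. In the second set the top 10% held 5 of the 10 immediate early genes (8 without female 5) and 13 of the 14 striatal projection neuron genes (11 without female 5). Over all tested members, ranked or not, the first-set median SD was 0.56 for immediate early genes and 0.47 for cortical markers. It was 0.43 for the indirect pathway and 0.37 for striatal projection neuron genes. Over all tested genes the median was 0.21, and over the ranked genes alone 0.12. In the second set the class median was 0.37 for immediate early genes and 0.96 for striatal projection neuron genes, or 0.27 and 0.31 without female 5. In the first set cholesterol synthesis genes (0.11) and reference genes (0.11), all of them ranked, were below the median of ranked genes. Of 16 reference genes, 3 were in the lowest 10% and 1 in the top 10%. Beta-actin (Actb), at 1411 CPM on average, had an SD of 0.07.

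**Figure D3:**
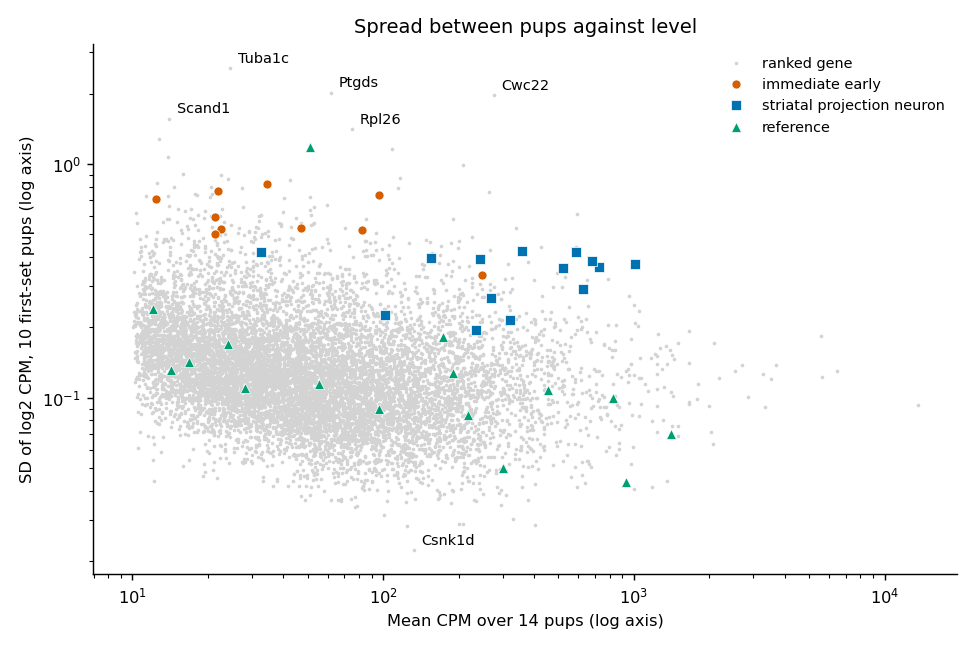
SD of log2 CPM over the 10 first-set pups (log axis) against mean CPM over 14 pups (log axis) for 10066 genes, with immediate early, striatal projection neuron and reference genes marked. Immediate early genes (median SD 0.56 over all 12 tested members, ranked or not) and striatal genes (0.37) lie above most genes of their level. Most reference genes do not, and Csnk1d is the lowest point.

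Immediate early genes are transcribed within minutes of synaptic activity, and their products are transcription factors, phosphatases and synaptic proteins. The 12 listed genes varied together from pup to pup, with a median pairwise Pearson r of 0.80 over 66 pairs in the 10 first-set pups, given as a description of genes that share a library. The FBJ oncogene Fos spanned 7.12, 20.9 and 40.3 CPM in the first set, lowest in male 1 and highest in female 2. It was 20.2, 13.1, 15.2 and 38.1 CPM in male 7, male 8, female 6 and female 5. The zinc-finger factor Egr1, the most abundant of the list at 55.4 CPM per kb, spanned 172, 233 and 331 CPM and was 295, 205, 235 and 360 CPM in the same second-set pups. Across the first set Fos followed Egr1 (r = 0.81, rho = 0.85, adjusted permutation p = 0.00534 and 0.00618, n = 10), and r was 0.64 without male 1 and female 1. Arc, which controls AMPA receptor traffic, ranged from 37.5 CPM in male 1 to 189 CPM in female 2.

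Relative to the mean of its own set, female 2 was higher in all 12 genes, by 0.84 on average on the log2 scale, and female 3 was higher in all 12 by 0.28. Female 1 was lower in all 12, by an average of -0.77, and male 1 in 11 of 12, by -0.69. In the second set female 5 was higher in 11 of 12, by 0.44, and female 6 lower in all 12, by -0.27. Against the mean of the second set without female 5, female 6 was still lower in all 12, by -0.12, and male 7 was higher in all 12, by 0.28. The interval between handling and death, which the labels do not give, was not tested. Egr4 belongs partly to another pattern, since its SD of 0.82 was 0.57 after the GC trend of each library was removed.

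**Figure D4:**
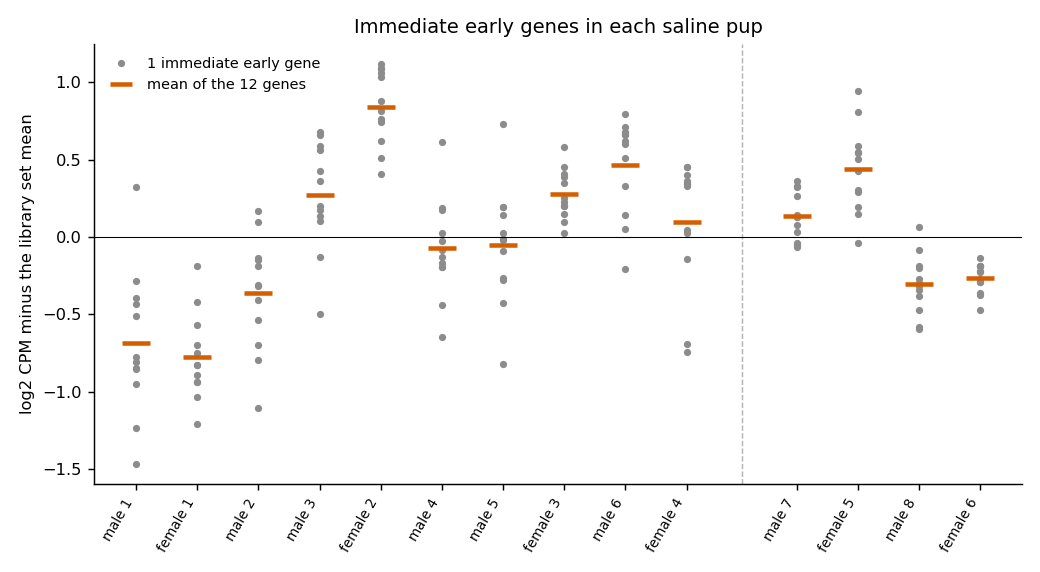
Log2 CPM of the 12 immediate early genes (grey points) minus each gene's mean in its library set, for each pup, with the mean of the 12 (bars). Female 2 lies at 0.84 and female 1 at -0.77, and all 12 genes share the sign in both.

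The sequences before these genes are shown because the genes varied together. The cAMP response element, bound by the activity-dependent factor CREB, has the letters TGACGTCA, and its core is TGACG. Both strands were searched, a core on the opposite strand stands as its reverse complement, and a whole element also counts as a core. RefSeq promoter windows on GRCm38.p6 were searched for 9 of the 12 genes (Fos, Fosb, Junb, Egr2, Egr4, Npas4, Nr4a1, Dusp1 and Btg2). Those of Egr1, Arc and Ier2 were not searched. In the 250 bases before the start site all 9 held the core on either strand (Egr2 in 3 of its 5 windows), and Dusp1 and Btg2 held the whole element. Of all 32851 windows of that length, 17.8% hold the core and 1.55% the whole element. A match is a run of letters and not a measured binding site. The windows of Fos (chr12:85473640-85473889, plus strand), of the neuronal factor Npas4 (chr19:4989972-4990221, minus strand), of the nuclear receptor Nr4a1 (chr15:101266596-101266845, plus strand) and of the MAP kinase phosphatase Dusp1 (chr17:26508473-26508722, minus strand) read as follows, 5′ to 3′ on the strand of the gene, with the core or whole element in capitals.
Fos: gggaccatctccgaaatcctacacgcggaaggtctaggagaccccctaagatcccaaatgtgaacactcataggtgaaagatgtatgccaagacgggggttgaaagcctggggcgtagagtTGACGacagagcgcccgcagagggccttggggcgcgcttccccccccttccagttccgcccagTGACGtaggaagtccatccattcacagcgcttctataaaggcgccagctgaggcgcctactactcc
Npas4: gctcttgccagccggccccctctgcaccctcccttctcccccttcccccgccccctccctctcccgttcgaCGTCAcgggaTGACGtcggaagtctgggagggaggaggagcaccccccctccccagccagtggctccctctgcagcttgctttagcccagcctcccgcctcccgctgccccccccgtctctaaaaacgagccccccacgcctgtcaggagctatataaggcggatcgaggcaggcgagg
Nr4a1: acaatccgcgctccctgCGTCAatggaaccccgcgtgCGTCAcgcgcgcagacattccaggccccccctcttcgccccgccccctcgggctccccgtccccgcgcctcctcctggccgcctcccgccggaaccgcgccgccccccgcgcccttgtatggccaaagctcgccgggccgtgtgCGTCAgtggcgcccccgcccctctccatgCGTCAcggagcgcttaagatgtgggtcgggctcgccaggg
Dusp1: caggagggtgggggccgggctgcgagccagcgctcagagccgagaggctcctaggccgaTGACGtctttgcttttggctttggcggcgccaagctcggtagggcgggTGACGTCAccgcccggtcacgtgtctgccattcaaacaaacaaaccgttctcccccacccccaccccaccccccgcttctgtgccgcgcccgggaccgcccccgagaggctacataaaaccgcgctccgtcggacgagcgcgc

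Several of the most variable genes did not vary gradually but took separate levels. The alpha-tubulin gene Tuba1c (chr15:99029891-99038110) had the highest SD, 2.57 in the first set. It was 0.86 to 1.94 CPM in 6 pups (male 1, male 2, male 3, male 5, male 8 and female 5) and 28.0 to 62.7 CPM in the other 8, a gap of 14.2-fold with no pup between. Its paralogs Tuba1b and Tuba1a, which hold 49.0% and 43.0% of its words of 31 bases, showed no such gap: Tuba1b was 146 to 245 CPM in the first set. The pseudogenes Gm14150 and Gm3756, which hold 36.8% and 33.2% of the words, were split between the same first-set pups, for Gm14150 at 0.044 to 0.21 CPM in the 4 low pups and 4.26 to 9.54 CPM in the other 6. Gm3226, with 40.4% of the words, was 0 to 0.43 CPM in those 4 low pups and 1.34 to 3.70 CPM in the other 6. In the second set Gm14150 followed Tuba1c, at 4.11 CPM in male 7 and 4.66 CPM in female 6. It was 2.03 CPM in female 5 and 1.04 CPM in male 8. Gm3226 and Gm3756 did not follow Tuba1c there, and both were highest in female 5, at 3.50 and 1.82 CPM. Gm3756 was 1.46 CPM in male 7, 1.36 CPM in female 6 and 0.86 CPM in male 8.

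Cwc22, a spliceosome factor that joins splicing to the exon junction complex, lies in a segment of chromosome 2 known for copy number that varies between mouse stocks. It was 23.3 to 75.04 CPM in 6 pups (all 4 first-set females, male 6 and male 7) and 370 to 520 CPM in the other 8. The files place no counts on the 7 annotated genes that share 22.3% to 22.4% of its words, such as Gm13691, which were at 0 in all 14 pups. The endothelial membrane gene Itm2a (X chromosome), kept out of the ranking by its second-set mean and named after its values were seen, was 45.5 to 49.6 CPM in male 1, male 2 and male 4 and 0.77 to 1.73 CPM in the other 11 pups. No other gene held 20% of its words. Other endothelial markers did not share this split; the tight-junction gene Cldn5 spanned 29.6 to 53.4 CPM in the first set.

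Ribosomal protein gene Rpl26 (chr11:68901583-68906989) showed a split with a mirror image. It was 13.7 to 18.4 CPM in the 4 first-set females and male 6, 67.4 CPM in male 2 and 104 to 123 CPM in the other 8 pups. Gm15772, a copy on chromosome 5 annotated as a processed pseudogene that RefSeq also lists under the synonym Rpl26, was 66.3 to 77.5 CPM in the same 5 pups, 37.6 CPM in male 2 and 0.38 to 1.15 CPM in the other 8. The sum of both was 83.1 to 124 CPM in the first set, with an SD of log2 of 0.20 against 1.41 for Rpl26 alone. The large spread of Rpl26 was thus matched by counts placed on the copy. Rpl35a, of the large ribosomal subunit, divided the first set at the same place but with the 5 pups higher: 44.2 to 69.2 CPM against 25.1 to 28.8 CPM in the other 5 males. In the second set Rpl35a did not mirror Rpl26. It was 53.8 CPM in male 7, whose Rpl26 was 116 CPM, and 23.4 to 31.8 CPM in male 8, female 5 and female 6. Male 7 was also the pup of that set with the low level of Cwc22, at 42.1 CPM. The animals' kinship and genotypes, which the labels do not give, were not tested.

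**Figure D5:**
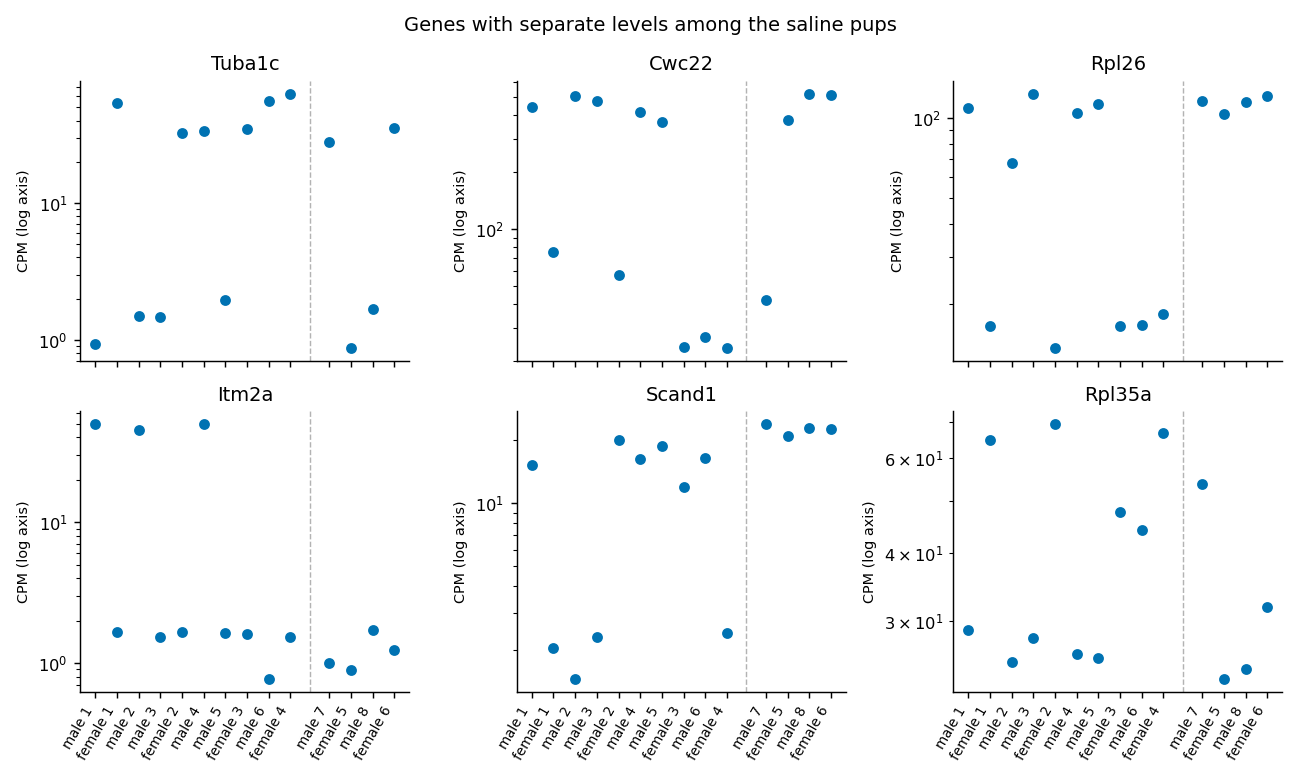
CPM (log axis) of 6 genes in each saline pup, first library set left of the dashed line and second set right. Tuba1c is at 0.86 to 1.94 CPM in 6 pups and at least 28.0 CPM in 8, Itm2a is above 45 CPM in 3 males only, Scand1 is low in 4 first-set pups, and Rpl35a is higher in the 5 first-set pups in which Rpl26 is lowest.

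A second recurring division was shared by GC-rich genes. For each of the 100 most variable genes the widest gap between neighbouring first-set pups was located. In 24 genes, Penk among them, the gap set male 5 apart from the other 9. In 18 genes it set female 1, female 4, male 2 and male 3 apart from the other 6. These 18 include the SCAN-domain gene Scand1, the zinc-finger genes Zfp771 and Zfp580, the secreted protein genes C1qtnf4 and Pcsk1n, the histone genes H2ax and H1f10 and the AP-1 factor Jund. Their median GC content was 65.0% in the 15 with a value, against 49.5% over 9907 ranked genes. Scand1 was 1.45 to 2.40 CPM in those 4 pups, 11.9 to 19.9 CPM in the other 6 and 20.8 to 23.8 CPM in the second set. Rps2-ps10, a copy of the ribosomal gene Rps2, in which 82.1% of its words occur, was 31.2 to 38.5 CPM against 116 to 189 CPM. The 4 pups were also 4 of the 5 with a negative deviation of the most GC-rich 10%, from -0.12 to -0.07, with female 3 at -0.04. Among second-set pups 12 of the 18 genes had an SD below the median gene, and 8 without female 5. After a smooth GC trend was removed from each library, 88 of the 100 most variable genes, and 12 of these 18, were still among the 100. The SD fell in 17 of the 18, and their median SD was 0.56 in place of 0.71. C1qtnf4 had 0.55 in place of 0.87, while the leading genes moved less, Scand1 to 1.30 from 1.57 and Rps2-ps10 to 1.13 from 1.16.

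The remaining top genes varied more gradually. Fezf2, a factor of deep-layer cortical neurons, spanned 1.79, 12.1 and 35.0 CPM in the first set and was 2.11 CPM in male 7 against 14.7 to 19.7 CPM in the other 3. The orphan receptor Gpr101 spanned 3.46, 10.4 and 33.2 CPM and reached 35.0 CPM in male 7. The group held a pair of imprinted genes, Peg10, at 50.1, 197 and 424 CPM, and the Notch-family ligand Dlk1, at 6.65, 13.6 and 34.4 CPM, with 392 and 78.0 CPM in male 7 and 36.8 and 4.06 CPM in female 5. The X-linked diacylglycerol kinase Dgkk spanned 4.41, 14.2 and 38.9 CPM and was 3.07 CPM in female 5. Of the 15 most variable genes of the first set, 9 were among the 100 most variable of the second, and 8 without female 5. Robo3, next in rank after the 15, had an SD of 0.83.

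At the other end, Csnk1d, the casein kinase that phosphorylates clock proteins, was 130 to 136 CPM in all 14 pups. Its SD was 0.022 in both sets (0.025 in the second without female 5), beside a counting error of 0.024 computed from halved mean counts. From the full counts that error would be lower. The RNA-binding gene Hnrnpk spanned 412 to 436 CPM in the first set but 345 to 366 CPM in the second. Smarcc2, a chromatin remodelling subunit, went the other way, at 261 to 279 CPM and 336 to 365 CPM. The others included Wac, Atp5c1, Tyro3, Atxn7l3b, Map3k12, Cul4a, Sec61a1, Inpp4a, P4hb, Kctd20 and Psmd11, which serve autophagy, ATP synthesis, receptor signalling and protein turnover. Their SDs lay between 0.028 and 0.036, and Spin1, next in rank, had 0.036. After the GC trend was removed, 4 of the 15 had over 1.5 times that SD: Psmd11 had 0.077 in place of 0.036, Tyro3 0.056 in place of 0.029, Hnrnpk 0.045 in place of 0.029 and Wac 0.043 in place of 0.028. All 15 were, in the second set, in the lower part of the ranking divided at its median, and 10 were in the lowest 10%; without female 5 these counts were 14 and 6. The protein disulfide isomerase P4hb was even across sets too, at 116 to 126 CPM in the first and 122 to 126 CPM in the second.

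Glial lists differed in how many members separated the library sets. Of 22 myelin genes, 15 were above every first-set pup in all 4 second-set pups and none below, beside 6.5% above and 5.99% below over all tested genes. Without female 5 the myelin counts were again 15 and none, beside 9% and 9.99%. Myelin basic protein (Mbp) spanned 1435, 1691 and 2179 CPM in the first set and was 3149, 2795, 2606 and 3476 CPM in male 7, male 8, female 6 and female 5, so the sets did not overlap. Of 8 oligodendrocyte precursor genes, 4 were above without overlap and none below (4 above and Ptprz1 below without female 5), and the lineage factor Olig1 was 84.2 to 141 CPM in the first set and 152 to 158 CPM in the second. Of 8 genes of newly formed oligodendrocytes 1 was above, or 3 without female 5 (Bcas1, Gpr17 and Tcf7l2). None of the 10 astrocyte markers separated, but without female 5 the water channel Aqp4 was below. The astrocyte glutamate transporter Slc1a2, the highest per kb at 269, spanned 2760 to 3677 CPM in the first set, whereas the filament gene Gfap spanned 45.3 to 151 CPM. Of the 10 microglial markers, 2 complement genes (C1qa and C1qc) were above, joined by the receptor Csf1r without female 5. Library set and any unlabelled difference between these pups cannot be told apart.

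Males and females differed in few genes. The test (edgeR quasi-likelihood with library set as a term, Benjamini-Hochberg adjustment over 19341 genes, 8 males and 6 females) called 6 genes higher in males (0.031%) and 5 lower (0.0259%), and 932 had an unadjusted p under 0.05. All 6 higher genes are on the Y chromosome. The translation factor gene Eif2s3y was 81.6 ± 6.12 CPM in males and 0.02 ± 0.03 CPM in females (SD), Kdm5d 47.2 ± 5.45 and 0.01 ± 0.03 CPM, Uty 23.7 ± 3.46 and 0.02 ± 0.04 CPM, and Ddx3y 74.1 ± 14.5 and 0.16 ± 0.25 CPM. Gm29650 and Uba1y were low in males (4.11 ± 1.18 and 0.59 ± 0.29 CPM) and had no count in any female, which allows at most 0.069 CPM (3 counts) in a single library. Xist, the RNA that silences an X chromosome, was 1011 ± 200 CPM in females and 0.76 ± 0.59 CPM in males, so every library matched its sex label.

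The other genes lower in males were mostly X-linked genes known to escape inactivation. Eif2s3x was 40.5 ± 5.73 CPM in males and 60.3 ± 5.44 CPM in females (log2 difference -0.60, SE 0.07, edgeR adjusted p = 0.000252), with no overlap within either set. The histone demethylases Kdm6a (-0.34, SE 0.05, edgeR adjusted p = 0.00516) and Kdm5c (-0.33, SE 0.05, edgeR adjusted p = 0.00666) were lower as well. Ddx3x, the partner of Ddx3y, was not called, with 295 to 359 CPM over the first set. The only autosomal gene was Tmem44 (chromosome 16), encoding a transmembrane protein, at 62.4 ± 4.74 CPM in males and 87.6 ± 15.5 CPM in females (log2 difference -0.49, SE 0.08, edgeR adjusted p = 0.0397). In the first set the 4 females had 87.2 to 106 CPM and the 6 males 54.3 to 67.7 CPM. In the second set the females had 68.4 and 70.2 CPM and the males 62.7 and 66.3 CPM, so most of the difference lay in the first set. The test of that difference between sets was not past the threshold (0.55, edgeR adjusted p = 0.686), and no gene was called for it. Tmem44 was called in 11 of 26 settings. The 4 first-set females also shared, with male 6, a side of the division seen in Cwc22, Rpl26 and Rpl35a. In male 6 Tmem44 was 67.6 CPM. Sex and that division largely overlap in the first set, and which of them Tmem44 follows was not tested.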

How the data were processed

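The authors deposited a table of raw counts for 53599 gene symbols and all libraries, per the file headers, and the 14 saline columns were used. RNA was poly-A selected, per the labels' protocols, and Trimmomatic, STAR, featureCounts and the mm10 build are named in the submitters' processing notes. The annotation, the use of strand and the counting of mates and of reads with several matches are not given in the sources used here.

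Sex and agent came from the labels, the library set from the title numbers. Replicates were numbered in accession order within a group, so the numbers pair nothing. All 43 within-group pairs of libraries differed by more than sampling noise (the smallest chi-square was 12 times its degrees of freedom). GENCODE M21 (GRCm38) gave length, position, biotype and GC content for 49974 of 53599 symbols. Genes that overlap others, or have near-identical copies, are uncertain.

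CPM used TMM factors (edgeR 4.0.16, R 4.3.3), and log2 CPM a prior count of 2. CPM per kb divides by the union of exons. Sex was tested with edgeR's quasi-likelihood test (filterByExpr, library set as a term, Benjamini-Hochberg threshold 0.05). SDs were ranked within sets. Counting error was computed from the halved mean count of the first set, and would be lower from the full count. The widest gap between pups was found on log2 CPM, and words of 31 bases were shared between GENCODE transcripts. These last steps were chosen after the values were seen. The scripts were tested on simulated data.

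The members and the 32 gene lists (340 genes) were chosen with earlier results of these data known. Genes were named by rule: the 10 protein-coding genes highest per kb, every direct-pathway, indirect-pathway, opioid and dopamine gene, the highest and most variable member of each other list, the 15 most and least variable genes, the genes called for sex, and a few fixed markers. Some genes that the rule selects are not reported here. Alternatives were DESeq2 1.42.0, limma-voom (limma 3.58.1), other scalings, filters, floors, prior counts and spread measures, halved counts, a GC adjustment, and leaving out each library. The GC adjustment, and the ratios and list counts without female 5, were added after the data were seen.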

Additional observations from a re-analysis of the deposited data

Results flagged for a closer look

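Within each library set, the named genes were searched for a pup far from the rest, by the gap to its neighbour over the range of the set. This flagged 24 of 250 gene and set combinations. The cut-off is set for about 1 in 20 (12.5) among genes not chosen for their spread. Many named genes were chosen for their spread in these same pups, and genes of a pup vary together. An excess over 12.5 is therefore no measure of chance. Values are log2 CPM, with the nearest pup of the same set in second place.

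Female 5 accounts for 10. It was lowest of the 4 second-set pups for mt-Nd1 (12.6, next 12.7), mt-Nd2 (11.8, next 11.9), Drd2 (3.81, next 6.51), the orphan receptor Gpr6 (3.07, next 5.50), the adhesion phosphatase Ptprm (5.53, next 6.07), Drd3 (-0.636, next 1.88), tyrosine hydroxylase Th (2.22, next 3.53) and the oligodendrocyte factor Tcf7l2 (3.23, next 3.60). It was highest for the amine oxidase Maoa (5.66, next 5.50) and haemoglobin Hbb-bs (6.54, next 5.85).

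Male 5 was lowest of the 10 first-set pups in 4 striatal receptor genes: Drd1 (5.82, next 6.80), Chrm4 (4.46, next 4.92), Gpr52 (4.41, next 5.03) and Drd3 (-1.3, next 0.782). Male 7 stood apart in 5 genes of the second set. It was lowest for the dopamine transporter Slc6a3 (-0.823, next 0.944), the cortical factor Fezf2 (1.1, next 3.88) and Cwc22 (5.4, next 8.56), and highest for the GABA-B receptor Gabbr1 (9.87, next 9.63) and mt-Nd4l (0.799, next -0.104).

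In the remaining 5 cases female 4 was lowest of the first set for the young-neuron genes Sox4 (6.17, next 6.77) and Igfbpl1 (2.8, next 4.05), female 2 for Slc1a2 (11.4, next 11.7) and male 4 for P4hb (6.85, next 6.92), and female 6 was lowest of the second set for P4hb (6.93, next 6.97). The differences in P4hb, Slc1a2 and the mitochondrial genes are small, because the other pups lie close together.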

How the results depend on the processing

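The number of genes called for sex was 11. It was 3 (Eif2s3x, Kdm6a and Kdm5c) when at least 10 counts were required in every library. That filter drops Y-linked genes by construction, and Xist and Tmem44 were not called under it either. The number was 26 with DESeq2, for which the cause was not tested. It was 8 to 13 under the other 9 settings and 10 to 14 when each library was left out. The count of genes that separate the library sets was 2415, and 3673 without female 5, where fewer samples must separate. The overlap of the 100 most variable genes was 34, and 26 to 48 under the other settings (40 with GC adjusted), and 23 to 38 leaving out each library. Genes at 1 CPM or more in every library numbered 13822, with 13813 to 14008 under all settings. The 5 correlations reported kept their sign and side of the threshold, with ranges of 0.87 to 0.96 for Drd1 with Drd2, 0.77 to 0.91 for Drd1 with Pdyn, 0.92 to 0.98 for Drd2 with Penk, -0.88 to -0.69 for Drd2 with Slc17a7, and 0.75 to 0.92 for Fos with Egr1. Of 132 SDs, 5 moved with GC adjusted (C1qtnf4 and the 4 least variable genes given above), and of 64 class levels, 19 moved by more than their spread with the longest transcript as length. No paired analysis was possible because the labels give no replicate numbers. At these depths a count of 0 allows up to 0.069 CPM in a library.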

Other observations

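Most of the copies of mitochondrial genes examined in the nuclear genome separated the library sets widely. They were chosen after their values were seen. Gm29216, a pseudogene on chromosome 1 that holds 29.6% of the words of mt-Co1, had 0.80 to 1.79 CPM in the 10 first-set pups and 43.7 to 53.1 CPM in the 4 second-set pups. Gm13340, on chromosome 2, had 2.97 to 6.96 and 97.5 to 121 CPM. Mt-Co1 itself, at 12158 to 15177 and 12610 to 14494 CPM, did not separate, but most genes of the mitochondrial genome did. Of those 13 genes, 8 were above every first-set pup in all 4 second-set pups and none below. Over all tested genes the shares were 6.5% above and 5.99% below. Without female 5 the mitochondrial counts were 11 and none, beside 9% and 9.99%. The sets overlapped for Gm28438, the copy of mt-Nd3, at 15.1 to 19.9 and 12.5 to 17.4 CPM, and for Gm10222, the copy of mt-Nd4l, at 1.48 to 3.14 and 2.79 to 3.79 CPM. The read length and mapping options of the sets, which the labels do not give, were not tested.

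Interneuron genes made up a small but uneven class. Somatostatin (Sst) was 122 to 207 CPM in the first set and 241 to 286 CPM in the second, without overlap. Only 1 of the 13 listed genes was above in this way, with or without female 5. That is near the share over all tested genes, 6.5%, or 9% without female 5. Sst stood at 265 CPM per kb and neuropeptide Y (Npy) at 127, while the cholinergic enzyme Chat (1.15) and the calcium-binding protein Pvalb (4.50 CPM per kb) were low. Cholecystokinin (Cck), also made by cortical neurons, spanned 42.6, 94.2 and 203 CPM in the first set and was 233 CPM in female 5, the pup with the most Slc17a7.

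Endocannabinoid genes were present in every pup. The lipase gene Mgll was even at 189 to 233 CPM in the first set, and the receptor gene Cnr1 was 171 to 313 CPM, with 107 CPM in male 7 and 329 CPM in female 5.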
